A study of Mus musculus with 6 samples.

Results

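The transcription factors Atoh1, Neurog3, Neurod1, Insm1, Pax4, Pax6, Isl1, Nkx2-2 and Rfx6 direct the secretory and enteroendocrine lineages of the intestine. They were taken as the probe sets annotated with these 9 symbols, and all 9 were found among the 19933 genes measured. Each was read by 1 probe set naming no other gene. The 3 transgenic mice had the labelled genotype TRE-MSI2::R26-M2rtTA, that is, an MSI2 transgene under a tetracycline-responsive element together with the M2rtTA transactivator at Rosa26. The 3 control mice had the genotype R26-M2rtTA and so carried the transactivator alone. Mice of both groups drank doxycycline, which activates M2rtTA, during the 24 hours before sampling, and their age and strain are not given in the sources used here. RNA of total epithelial cells of the jejunum was hybridised to 1 Affymetrix Gene 1.0 ST array per mouse, and the replicates are labelled biological. Rosa26 is active in most cell types, so induction was not limited by design to a single epithelial cell type.

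In the intestinal crypt, Atoh1 is the basic helix-loop-helix (bHLH) factor that commits progenitors to the secretory fate of goblet, Paneth and enteroendocrine cells, and Notch signalling through Hes1 represses it. Neurog3, another bHLH factor, then marks the short-lived progenitors of hormone-producing enteroendocrine cells. Downstream of Neurog3, the factors Neurod1, Insm1, Pax4, Nkx2-2, Rfx6, Isl1 and Pax6 act in the maturation of enteroendocrine cells and in the choice and expression of hormones. These cells are a small minority of the epithelium, so their transcripts are diluted in an RNA pool of all epithelial cells. In such a pool, fewer cells of a type and less RNA per cell cannot be told apart.

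Array medians lay at 6.42 to 6.46 in log2 units. The labelled MSI2 transgene was checked through Msi2, which had log2 values of 11.23, 10.58 and 11.44 in transgenic mice, against 11.30, 9.53 and 9.32 in control mice. Control replicate 1 lay with the transgenic mice in Msi2, and the difference did not pass (log2 fold change 1.03, adjusted p = 0.257 in limma). Without that array it was 1.66 (adjusted p = 0.00958), so the Msi2 probe set went against the label of control replicate 1. The paralog Msi1 separated all arrays by label, at 13.44, 12.82 and 13.53 in transgenic mice, against 7.20, 7.97 and 7.62 in control mice. Its log2 fold change was 5.66 (adjusted p = 0.000818 in limma). The probe set of Msi1, and not that of the gene named in the genotype, thus carried the large difference, and which transcript the transgene gave was not tested. The groups below are therefore the libraries labelled transgenic and control. Over all probe sets control replicate 1 correlated by 0.981 and 0.982 with the other controls, which correlated by 0.996 with each other.

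Of the 9 factors, Rfx6, Neurog3 and Insm1 were lower in transgenic mice at an adjusted p under 0.05, and none was higher. These adjusted calls were 33.3% of the factors, where 9.65% of all 19933 genes were called lower and 8.97% were called higher. The factors were chosen with earlier results of these data known, so these shares are set side by side without a test. At an unadjusted p under 0.05 the same 3 passed and none was higher. Over all genes that unadjusted limit was loose. Defa24, a Paneth cell marker that just missed it, ranked 6625 of 19933 genes in limma, both directions together. The unadjusted count of the factors was therefore not read as an excess. The tests were limma's moderated tests over all genes, two-sided, with Benjamini-Hochberg adjustment. The same 3 factors were those whose groups did not overlap in the lower direction, which held for 17.5% of all genes. All 9 factors had a lower mean in transgenic mice, as did 45.8% of all genes, and the median log2 fold change was -0.34 for the factors and 0.02 for all genes. Without transgenic replicate 3 or control replicate 3 none of the 9 passed, without transgenic replicate 1 or control replicate 2 only Rfx6 did, and without control replicate 1 all 3 calls held. Without transgenic replicate 2, Rfx6, Neurog3 and Neurod1 passed.

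Promoter windows of the highest factor in the hierarchy, Atoh1, and of Neurog3 and Rfx6, the called factors with a window in the RefSeq table, are shown because proneural bHLH factors bind E-boxes (CANNTG). Each runs from 250 bases before to 50 bases after a transcription start in RefSeq's GRCm38.p6, 5′ to 3′ on the strand of the gene, with E-boxes in capitals. They lie at chr6:64728875-64729174 for Atoh1, at chr10:62132840-62133139 for Neurog3 and at chr10:51685268-51685567 for Rfx6, all on the plus strand.
Atoh1: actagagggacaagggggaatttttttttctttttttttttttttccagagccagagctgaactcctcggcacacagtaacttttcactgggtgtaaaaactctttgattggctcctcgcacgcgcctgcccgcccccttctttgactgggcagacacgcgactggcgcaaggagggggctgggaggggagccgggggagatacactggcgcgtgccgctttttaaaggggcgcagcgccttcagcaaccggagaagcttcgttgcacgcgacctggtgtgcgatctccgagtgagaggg
Neurog3: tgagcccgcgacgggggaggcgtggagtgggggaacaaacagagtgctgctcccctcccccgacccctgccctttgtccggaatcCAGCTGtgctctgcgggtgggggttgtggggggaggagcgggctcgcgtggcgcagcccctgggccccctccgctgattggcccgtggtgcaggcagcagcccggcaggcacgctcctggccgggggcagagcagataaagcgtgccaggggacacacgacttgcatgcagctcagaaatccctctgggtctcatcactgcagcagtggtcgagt
Rfx6: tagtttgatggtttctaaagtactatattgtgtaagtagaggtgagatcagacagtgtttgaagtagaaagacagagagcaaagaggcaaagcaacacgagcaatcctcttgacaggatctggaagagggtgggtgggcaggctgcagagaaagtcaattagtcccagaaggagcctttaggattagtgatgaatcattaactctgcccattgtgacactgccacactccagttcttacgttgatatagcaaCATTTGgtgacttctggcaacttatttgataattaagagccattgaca

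The table held 8 windows for 7 of the 9 factors, with 2 for Pax6 and none for Insm1 and Pax4. An E-box of any kind, CANNTG, which reads the same class on both strands, was found in 6 of the 8 windows and in 72.3% of all 32851 windows of this length. The single E-box of Neurog3, CAGCTG, starts 165 bases before the start site. This form was found in 2 of the 8 windows, those of Neurog3 and Isl1, and in 16.3% of all windows. Rfx6 had a CATTTG that begins at base 3 of the transcript, and Atoh1 had no E-box in its window. The core TGGGAA, searched on both strands as the motif of the Notch effector RBPJ, was found in 0 of the 8 windows and in 25.6% of all windows. CACNAG, the N-box bound by Hes proteins, was found on either strand in 5 of the 8, Atoh1 and Rfx6 among them, and in 42.5% of all. N-boxes and E-boxes were counted separately, overlaps included, and a match is a run of letters only.

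**Figure D1:**
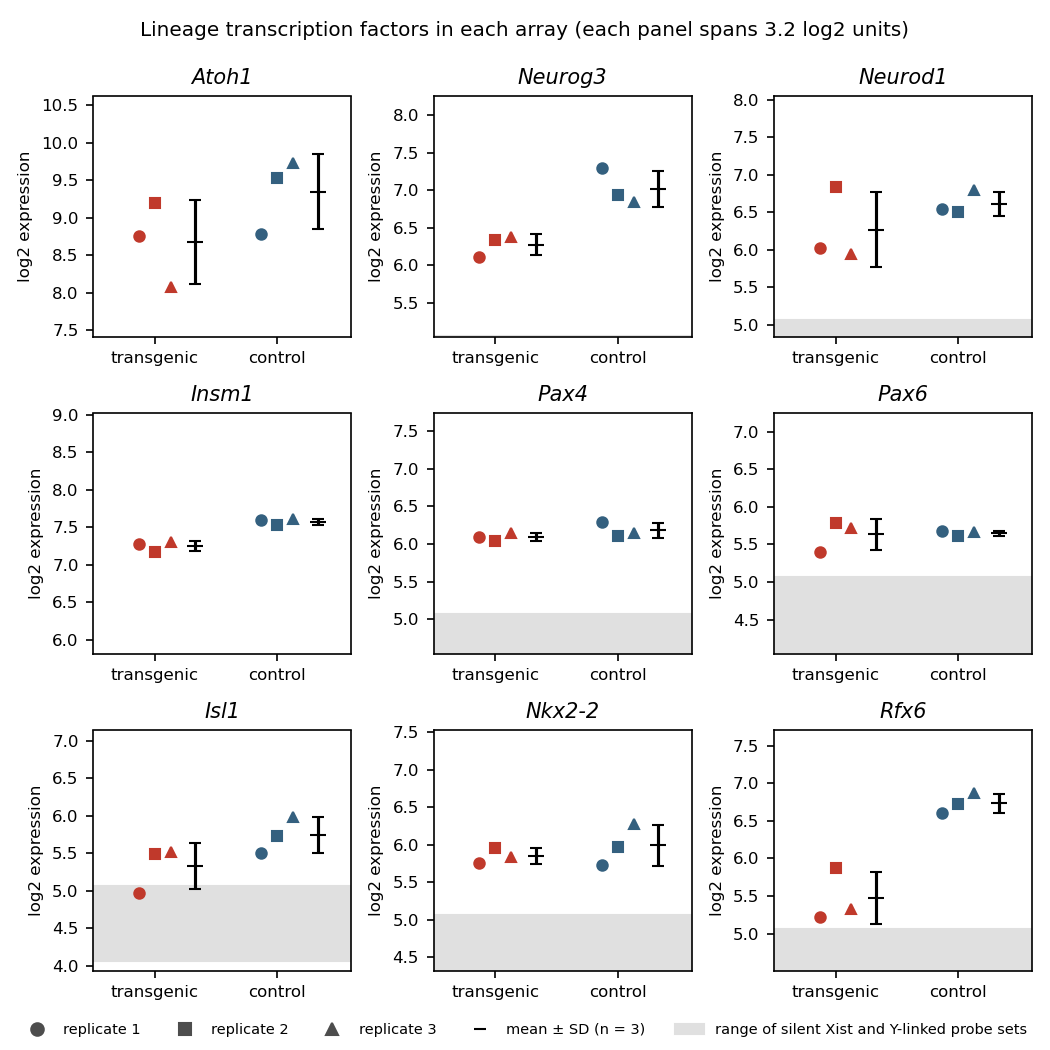
Log2 expression of each of the 9 factors (y axis) in the 3 transgenic and 3 control arrays (x axis), with mean ± SD and, in grey, the range from 4.07 to 5.06 of Xist and Y-linked probe sets where those transcripts were absent. Transgenic values of Neurog3, Insm1 and Rfx6 all lie below their controls, and the groups of the other 6 factors overlap.

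At the head of the hierarchy, Atoh1 had log2 values of 8.76, 9.20 and 8.08 in transgenic mice, against 8.78, 9.53 and 9.73 in control mice. The groups overlapped, because control replicate 1 was at the level of transgenic replicate 1 and below transgenic replicate 2. The means were 8.68 ± 0.56 in transgenic and 9.35 ± 0.50 in control mice (SD, n = 3 each). The log2 fold change of -0.67 ± 0.36 (SE) did not pass (adjusted p = 0.254 in limma), and its 95% interval of -1.54 to 0.20 includes both no change and a fall of more than 1 log2 unit. With limma's array weights, which give noisier arrays less influence, Atoh1 was at -1.03 and passed (adjusted p = 0.0288). The weights also raised the calls over all genes, to 3442 lower from 1923 in the main fit. Without control replicate 1 Atoh1 was at -0.96 (adjusted p = 0.0823).

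Neurog3, the factor of enteroendocrine progenitors, had log2 values of 6.11, 6.34 and 6.37 in transgenic mice, against 7.29, 6.93 and 6.84 in control mice. Every transgenic value lay below every control value, and control replicate 1, low in Atoh1, was the highest here. Neurog3 fell by 0.74 on the log2 scale (SE 0.14), which is 1.68-fold lower in transgenic mice, with means of 6.28 ± 0.14 and 7.02 ± 0.24 (SD, n = 3 each, adjusted p = 0.0209 in limma). The call was lost without transgenic replicate 1, transgenic replicate 3, control replicate 2 or control replicate 3 (adjusted p = 0.0717, 0.0692, 0.0694 and 0.0522) and in a fit blocked on sex, read from Xist and Y-linked transcripts (adjusted p = 0.0539), while the log2 fold change stayed between -0.84 and -0.61 over the 6 fits with 1 array left out. An exact two-sided permutation test of Neurog3 alone gave p = 0.1, the smallest that 3 against 3 arrays can give.

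The changes of Neurog3 and Atoh1 were compared within arrays. The Neurog3 change minus the Atoh1 change was -0.07 on the log2 scale, and an exact two-sided permutation test of the arrays' differences gave p = 0.8, where 0.1 is the smallest possible. Leaving out 1 array moved this difference between -0.42 without transgenic replicate 3 and 0.35 without control replicate 1. A larger change of Neurog3 than of Atoh1 was therefore not shown, although only Neurog3 passed on its own.

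**Figure D2:**
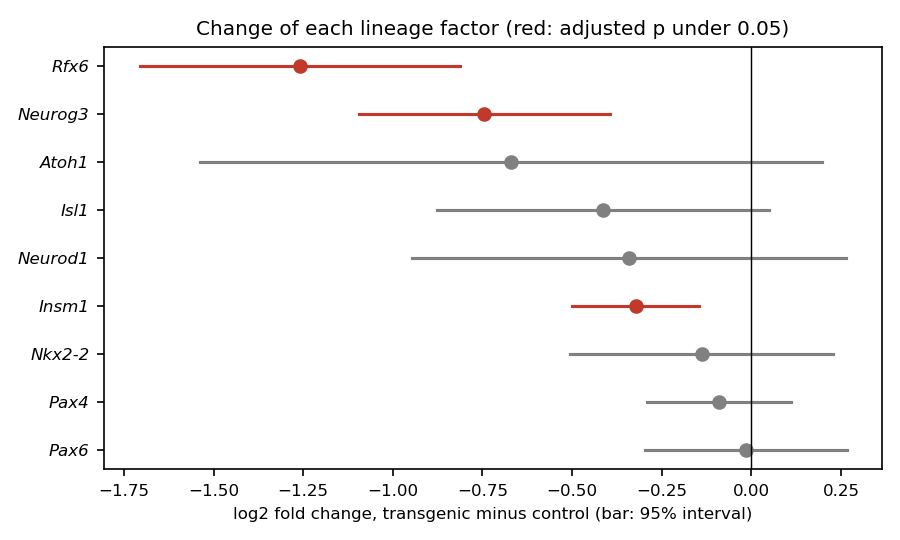
Log2 fold change, transgenic minus control (x axis), of each factor (y axis), with its 95% interval from limma. Rfx6 at -1.26, Neurog3 at -0.74 and Insm1 at -0.32 passed and are in red, and the intervals of the other 6, in grey, include 0.

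Rfx6, a winged-helix factor needed for enteroendocrine and pancreatic islet cells, differed most among the 9. Its log2 values were 5.22, 5.87 and 5.33 in transgenic mice, against 6.61, 6.72 and 6.87 in control mice. The highest transgenic value was well below the lowest control value. Xist and Y-linked probe sets gave 4.07 to 5.06 where those transcripts were absent, and transgenic replicates 1 and 3 lay just above that range. Rfx6 fell by 1.26 on the log2 scale (SE 0.18, 95% interval -1.71 to -0.81), or 2.39-fold lower in transgenic mice, with means of 5.47 ± 0.35 and 6.73 ± 0.13 (SD, n = 3 each, adjusted p = 0.0102 in limma). It remained past the threshold in the fit blocked on sex, at -1.29 (adjusted p = 0.0315). It missed the threshold narrowly without transgenic replicate 3 or control replicate 3 (adjusted p = 0.0505 and 0.0521). Its exact permutation p was 0.1, the smallest possible.

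Insm1, a zinc-finger factor of endocrine progenitors and mature endocrine cells, showed a small difference with little spread. It had log2 values of 7.28, 7.18 and 7.30 in transgenic mice, against 7.59, 7.53 and 7.60 in control mice. The groups were separate, and the SD was 0.07 in transgenic and 0.04 in control mice (n = 3 each). Insm1 fell by 0.32 (SE 0.07) on the log2 scale, or 1.25-fold lower in transgenic mice (adjusted p = 0.0317 in limma). The call was lost without transgenic replicate 1, 2 or 3 (adjusted p = 0.0914, 0.0637 and 0.0857), without control replicate 2 or 3 (adjusted p = 0.0903 and 0.115), in the fit blocked on sex (adjusted p = 0.0735), under limma's intensity trend, robust or not (adjusted p = 0.0816 and 0.0717), and among genes above the median gene (adjusted p = 0.0578). In all of these settings Insm1 stayed lower, by 0.28 to 0.35.

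Neurod1, a bHLH factor that Neurog3 activates and that acts in hormone-expressing cells, was split within the transgenic group. Its log2 values were 6.03, 6.84 and 5.94 in transgenic mice, against 6.55, 6.50 and 6.79 in control mice. Transgenic replicate 2 was above all 3 controls, and the other transgenic arrays were below all of them. The log2 fold change was -0.34 ± 0.25 (SE) and did not pass (adjusted p = 0.412 in limma). Without transgenic replicate 2 it was -0.63 and passed (adjusted p = 0.0227).

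Pax4 and Pax6, paired-box factors that in the endocrine pancreas act on different hormone lineages, did not pass. Pax4 had log2 values of 6.09, 6.04 and 6.15 in transgenic mice, against 6.29, 6.11 and 6.15 in control mice, a log2 fold change of -0.09 ± 0.08 (SE, adjusted p = 0.523 in limma). The 95% interval of Pax4 ran from -0.29 to 0.11. Pax6 had log2 values of 5.40, 5.78 and 5.72 in transgenic mice, against 5.68, 5.61 and 5.66 in control mice. Its log2 fold change was -0.02 ± 0.12 (SE, adjusted p = 0.948), with a 95% interval from -0.30 to 0.27. Both intervals exclude a measured fall of the size found for Rfx6, and for both genes transgenic and control values overlapped. The control means of Pax4 and Pax6, 6.18 and 5.65, were not far above the 4.07 to 5.06 of absent Xist and Y-linked transcripts. Differences of dim probe sets are compressed, so a larger fall in transcript could go unseen.

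The homeodomain factors Isl1 and Nkx2-2 differed in how close they came to the threshold. Isl1, a LIM-homeodomain factor of hormone-producing cells, had log2 values of 4.98, 5.49 and 5.51 in transgenic mice, against 5.51, 5.73 and 5.99 in control mice. Transgenic replicate 3 and control replicate 1 met at 5.51, and the value of transgenic replicate 1 lay inside the range of silent probe sets. The log2 fold change of -0.41 ± 0.19 (SE) did not pass (adjusted p = 0.192 in limma), but did with the replicate number as a block (adjusted p = 0.0389). Nkx2-2, which helps to set enteroendocrine subtypes, had log2 values of 5.75, 5.96 and 5.84 in transgenic mice, against 5.72, 5.97 and 6.27 in control mice. Its groups overlapped, and the log2 fold change was -0.14 ± 0.15 (SE, adjusted p = 0.593).

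Array by array, transgenic replicate 1 had 9 of the 9 factors below the control mean and 8 below the lowest control, with a median deviation of -0.58 from the control means. Transgenic replicate 2 had 7 below the control mean and a median deviation of -0.15, and replicate 3 had 8 and -0.28. The controls had median deviations of -0.06, -0.04 and 0.14 for replicates 1, 2 and 3. Transgenic replicate 2 was thus the nearest to the controls. It held the highest transgenic value of Atoh1, Neurod1, Pax6, Nkx2-2 and Rfx6.

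**Figure D3:**
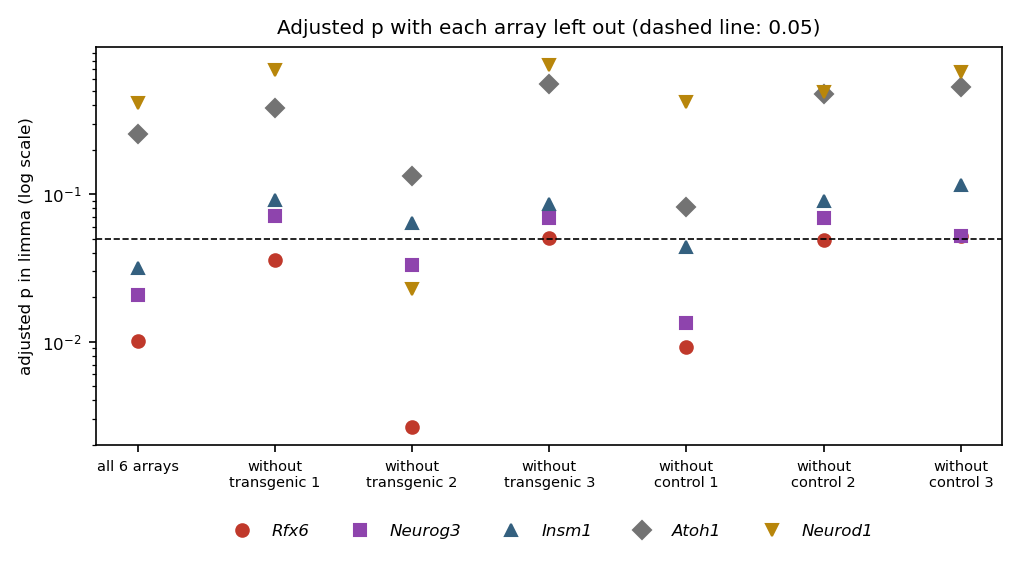
Adjusted p in limma on a log scale (y axis) for Rfx6, Neurog3, Insm1, Atoh1 and Neurod1 with all 6 arrays and with each array left out (x axis). Rfx6 is below the dashed line at 0.05 in 4 of the 6 fits with an array left out and at most at 0.0521 in the others, Insm1 is above it in 5 of the 6 fits with an array left out, and Neurod1 is below it only without transgenic replicate 2.

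The genes most like Neurog3 and Atoh1 over the 6 arrays were named by the root mean square difference between log2 profiles, each centred on its own mean. Nearest to Neurog3 were Lcp2 (0.05), an adaptor of antigen receptor signalling in blood cells, Itpr3 (0.06), an intracellular calcium channel, and Lgals2 (0.07), a galectin. Their log2 fold changes were -0.72, -0.79 and -0.66 (adjusted p = 0.0386, 0.0118 and 0.0156 in limma), beside -0.74 for Neurog3. A similar change follows from choosing genes by their profile over these arrays, so it adds no separate result for Neurog3. Lcp2 passed in 1 of the 6 fits with an array left out, without control replicate 1, and did not pass with the replicate number or sex as a block (adjusted p = 0.0563 and 0.0895). Itpr3 lost its call only without transgenic replicate 3 (adjusted p = 0.054), and Lgals2 without transgenic replicate 1, transgenic replicate 3 or control replicate 2 (adjusted p up to 0.0633).

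Nearest to Atoh1 were Muc2 (0.15), the main secreted mucin of goblet cells, Gpr21 (0.17), an orphan receptor, and Foxa3 (0.17), a forkhead factor of goblet and other secretory cells. Muc2 had log2 values of 12.76, 13.28 and 11.71 in transgenic mice, against 12.59, 13.57 and 13.65 in control mice. Like Atoh1, it was lowest in transgenic replicate 3, and control replicate 1 lay among the transgenic values. The log2 fold changes of Muc2, Gpr21 and Foxa3 were -0.69, -0.84 and -0.84, and none passed (adjusted p = 0.374, 0.0873 and 0.117 in limma). Without control replicate 1 Foxa3 passed (adjusted p = 0.0231). These likenesses describe 6 arrays in 2 groups and carry no test, and the changes of the chosen genes resemble those of Neurog3 or Atoh1 by that choice.

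**Figure D4:**
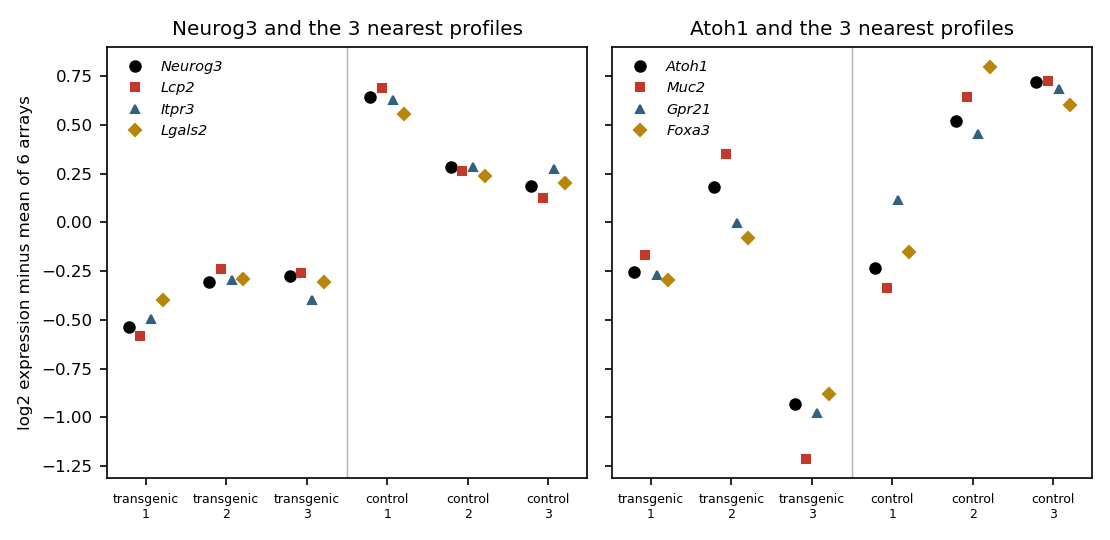
Log2 expression minus the mean of the 6 arrays (y axis) in each array (x axis) for Neurog3 with Lcp2, Itpr3 and Lgals2, and for Atoh1 with Muc2, Gpr21 and Foxa3. The Neurog3 set is low in every transgenic array and highest in control replicate 1, whereas the Atoh1 set is lowest in transgenic replicate 3 and lower in control replicate 1 than in the other controls.

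Of 18 other factors of the secretory lineages measured, 2 were lower and 1 higher past the threshold, shares near the 9.65% and 8.97% of all genes, and 15 did not pass. Their median log2 fold change was -0.08. With array weights 5 were lower and 2 higher, without transgenic replicate 2 there were 1 and 3, and without control replicate 1 there were 3 lower. Calls over all genes also rose with array weights, to 3442 lower and 3630 higher, from 1923 and 1787. Foxa1, a forkhead factor that acts with Foxa2 in goblet and enteroendocrine differentiation, rose by 1.27 on the log2 scale, with values of 9.97, 9.45 and 10.01 in transgenic mice, against 8.72, 8.56 and 8.33 in control mice (adjusted p = 0.00973 in limma). It passed in all 6 fits with an array left out. Sox4, a factor of enteroendocrine and tuft progenitors in mouse, was at -0.46 (adjusted p = 0.0361), and Etv1, an ETS factor found in enteroendocrine cells, at -0.39 (adjusted p = 0.0492). Neither passed with the replicate number as a block (adjusted p = 0.059 and 0.0535) or in the fit blocked on sex (adjusted p = 0.0686 and 0.109). Sox4 was lost without transgenic replicate 1 or 3 or control replicate 2 or 3 (adjusted p up to 0.117), and Etv1 without any array other than control replicate 1 (adjusted p up to 0.156). Sox9, a factor of crypt progenitors and Paneth cells that was named after its values were seen, was at 0.88 with separate groups (adjusted p = 0.0585), and passed without transgenic replicate 2 (adjusted p = 0.00323). Gfi1 and Spdef, which act below Atoh1 in goblet and Paneth cells, were at -0.13 and -0.29 (adjusted p = 0.37 and 0.126).

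Among 20 bHLH partners, inhibitors and cofactors, 2 were lower and 1 higher, beside 9.65% lower and 8.97% higher over all genes. The list as a whole thus held no excess of calls. Tcf3, which encodes the E proteins that pair with Atoh1, Neurog3 and Neurod1, had log2 values of 8.09, 8.11 and 7.92 in transgenic mice, against 9.001, 8.82 and 8.74 in control mice. It fell by 0.82 (SE 0.10, adjusted p = 0.00672 in limma). Hes6, a bHLH gene whose protein antagonises Hes1, was at -1.07 (adjusted p = 0.00507). Both passed in all 6 fits with an array left out. Id1, whose protein binds E proteins and keeps them from DNA, rose by 1.26, with log2 values of 10.96, 10.16 and 11.17 in transgenic mice, against 9.44, 9.79 and 9.30 in control mice (adjusted p = 0.0305). The Id1 call was lost without transgenic replicate 1 or 3 or control replicate 2 or 3 (adjusted p up to 0.114), and in the fit blocked on sex (adjusted p = 0.0685). Blocking on the replicate number gave 2 higher genes here, and so did leaving out transgenic replicate 2 or control replicate 1, while array weights gave 4 lower and 3 higher. Hes1, the repressor of Atoh1, was at -0.53 (adjusted p = 0.0631).

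Of 20 Notch ligands, receptors and signal components, 6 were lower and 3 higher, with a median log2 fold change of -0.02. Over all genes 9.65% were lower and 8.97% higher. The 6 with the lowest p were the ligand gene Jag2 at 1.46, the glycosyltransferase gene Lfng, which modifies Notch receptors, at -0.81, the feedback gene Nrarp at -1.09, Dtx1 at -0.63, the receptor gene Notch1 at -0.63 and the protease gene Adam17 at -0.72 (adjusted p = 0.00286, 0.00286, 0.00628, 0.00672, 0.0124 and 0.0135 in limma). Jag2, Lfng, Nrarp and Dtx1 passed in all 6 fits with an array left out. Notch1 was lost without control replicate 2 (adjusted p = 0.0586), and Adam17 without transgenic replicate 1 or control replicate 2 or 3 (adjusted p up to 0.0628). The ligand genes expressed by secretory progenitors, Dll1 and Dll4, were at -0.85 and -0.73 and did not pass (adjusted p = 0.0609 and 0.277), but did with the replicate number as a block (adjusted p = 0.0204 and 0.0103). Dll1 also passed without transgenic replicate 2 (adjusted p = 0.0119). Of the 3 higher genes 1 passed without transgenic replicate 1, transgenic replicate 3, control replicate 2 or control replicate 3, and of the 6 lower genes 3 without control replicate 2. In the fit blocked on sex 1 higher gene passed.

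The hormones and granule proteins that mature enteroendocrine cells make were read beside the factors. Of 12 hormone genes, 9 had lower means and 1 passed, Gcg, the proglucagon gene, at -1.75 (adjusted p = 0.0489 in limma). Over all genes 45.8% had lower means, 9.65% were called lower and 8.97% higher. With the replicate number as a block 3 hormone genes were lower, with array weights 7 were, and without transgenic replicate 2 or control replicate 1 there were 3 and 5. In the same order, 2605, 3442, 1892 and 2879 of all genes were lower in these fits, beside 1923 in the main fit. Without transgenic replicate 1, 1 hormone gene was higher. Gcg did not pass without transgenic replicate 1 or 3 or control replicate 2 or 3 (adjusted p up to 0.162), nor in the fit blocked on sex (adjusted p = 0.0803). After a renewed quantile normalization, and with all probe sets tested as features, 0 hormone genes were called lower. Of 12 granule genes, Chgb, a granin, was lower at -0.85 (adjusted p = 0.0305) and Vgf, a neuroendocrine peptide precursor, higher at 0.36 (adjusted p = 0.0308). Both were lost without transgenic replicate 1 or 3 or control replicate 2 or 3 (adjusted p up to 0.113 and 0.104), and in the fit blocked on sex (adjusted p = 0.0706 and 0.0528). Blocking on the replicate number gave 2 lower and 2 higher granule genes, and blocking on sex gave 0 in either direction. With array weights 4 were lower, and without transgenic replicate 2 or control replicate 1 there were 2 and 3 lower. Chga, a granin gene of most enteroendocrine cells, had log2 values of 9.16, 10.39 and 9.64 in transgenic mice, against 10.47, 10.59 and 10.77 in control mice. Its groups were separate, but at -0.88 it did not pass (adjusted p = 0.0977), except without transgenic replicate 2 (adjusted p = 0.0112).

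**Figure D5:**
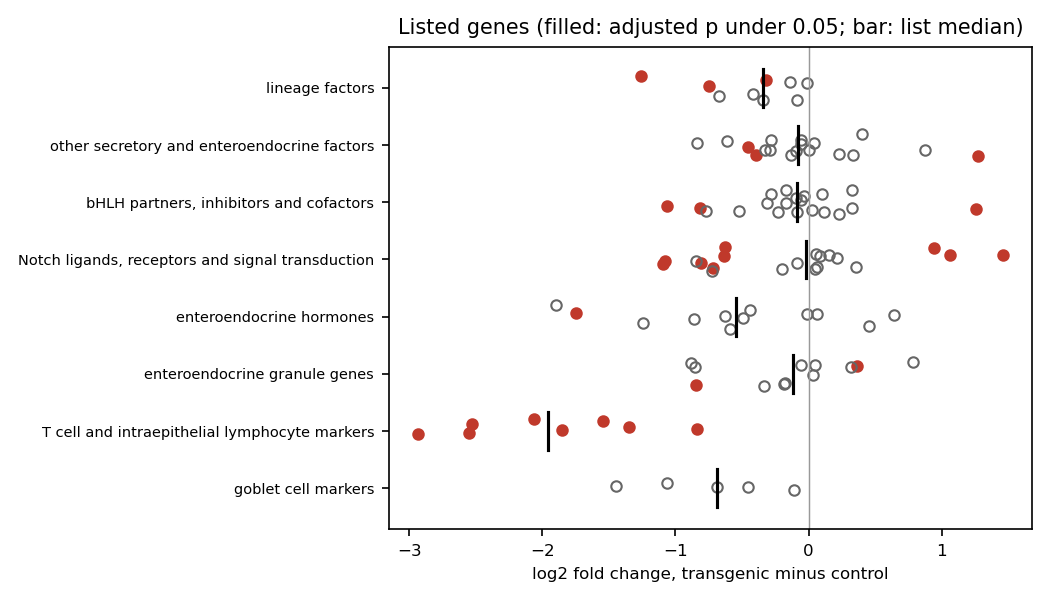
Log2 fold change, transgenic minus control (x axis), of each measured gene in 8 lists (y axis), with genes past an adjusted p of 0.05 filled and list medians as bars. The 9 lineage factors all lie below 0, the other factor and Notch lists spread to both sides, and the 8 lymphocyte markers were all lower.

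Of the marker lists of other cells, that of lymphocytes differed throughout. Over all genes 9.65% were called lower and 8.97% higher. All 8 markers of T cells and intraepithelial lymphocytes were lower past the threshold, with summed levels on the log2 scale from 9.66 to 10.94 in transgenic mice, against 12.17 to 12.85 in control mice. Of these 8, 6 passed without transgenic replicate 1, 3 without transgenic replicate 3, 3 without control replicate 2 and 2 without control replicate 3. Of 4 crypt base stem cell markers 2 were lower, also in all 6 fits with an array left out. Of 9 enterocyte markers 1 was lower, or 7 with the replicate number as a block, 2 without transgenic replicate 2 and 0 without transgenic replicate 1, transgenic replicate 3, control replicate 2 or control replicate 3, with summed levels from 15.03 to 16.14 in transgenic mice, against 15.64 to 16.59 in control mice. None of 5 goblet, 5 Paneth and 6 tuft cell markers passed, although 5, 5 and 5 had lower means. So did 4 of the 4 stem cell and 8 of the 9 enterocyte markers. Their median log2 fold changes were -0.99 and -0.80, beside -0.34 for the 9 factors. With the replicate number as a block 2 goblet markers were lower, as without control replicate 1, and 1 was without transgenic replicate 2. Over all genes 2605 were lower with that block, beside 1923 in the main fit. None of 7 stromal, 8 enteric neuron and glia, and 6 proliferation markers passed in either direction. Without control replicate 1, 1 stromal and 3 proliferation markers were higher and 1 neuron and glia marker was lower, and with the block 1 proliferation marker was higher. The summed levels of the neuron and glia markers were 8.86 to 9.19 in transgenic mice, against 8.76 to 9.01 in control mice. Among these neuron and glia markers Elavl4 lay, on average, within the range of silent probe sets, and the part of these other cells in the values of the 9 factors was not tested.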

How the data were processed

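Log2 expression values per probe set were deposited by the authors, 1 column per array. Per the submitters' processing notes they came from Partek and RMA, named without versions or settings. RMA removes global shifts between arrays and compresses differences of dim probe sets, and no background flags were used here. Of 28350 probe sets, 21780 named 1 gene, and 21689 of these were matched by gene identifier to a RefSeq table of GRCm38.p6, used for names. The probe set with the highest mean represented each of 19933 genes. Precision is limited by having 3 arrays per group.

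The test was limma's moderated one (limma 3.58.1 under R 4.3.3, group as the only term, two-sided, Benjamini-Hochberg over all genes, threshold 0.05), and the fit was tested on simulated data. Log2 fold changes are transgenic minus control. Dim probe sets were kept. The factors and lists were chosen with earlier results of these data known. Named genes were the 9 factors, listed genes past the threshold (at most the 6 with the lowest p per list), the 3 nearest profiles of Neurog3 and Atoh1, and Hes1, Dll1, Dll4, Gfi1, Spdef, Chga, Msi1 and Msi2, besides 1 gene that is not reported here. Sox9 was added after its values were seen. Deviations from the group means correlated by 0.52, 0.41 and 0.13 between arrays with replicate numbers 1, 2 and 3, so the numbers were treated as pairs in the alternative with a replicate block, although no label says what a number shares and such deviations cancel out within a group. Sex, read from Xist, Uty, Eif2s3y and Kdm5d, was female for 1 transgenic and 2 control mice and entered only as an alternative block. Promoter windows came from RefSeq.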

Additional observations from a re-analysis of the deposited data

How the results depend on the processing

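Rfx6, Neurog3 and Insm1 were lower in every alternative that measured them, in contrast to Pax6, which turned to 0.0154 with sex as a block and lay between -0.089 and 0.10 with 1 array left out, turning without transgenic replicate 1, and Nkx2-2, which lay between -0.27 and 0.0029, turning without control replicate 3. The number of factors called lower was 4 with the replicate block, 4 with array weights, 2 under the intensity trend, robust or not, and 1 with sex as a block. It was 0 among genes above the median gene, where 7 of the 9 factors, Neurog3 and Rfx6 among them, were not tested, and 0 at a threshold of 0.01. With 1 array left out it was 0 to 3, with no factor called higher in any fit. The genes called higher and lower were 1787 and 1923 in the main fit and 2534 and 2605 with the replicate block. They were 3630 and 3442 with array weights, 1068 and 1091 with sex as a block, and 395 and 406 at a threshold of 0.01. At a threshold of 0.1, 2729 were higher. With 1 array left out they were 476 to 2663 and 476 to 2879, where fewer arrays give less power. Of the listed genes 38 passed with array weights, 9 with sex as a block, 7 at 0.01 and 7 to 28 with 1 array left out. The Neurog3 change minus the Atoh1 change was 0.05, 0.15 and 0.35 without transgenic replicate 1, transgenic replicate 2 and control replicate 1, and -0.42 to 0.35 over all arrays left out. Apart from Isl1, Sox4, Etv1, Lcp2, Dll1 and Dll4, the replicate block changed no call of a factor or named gene. Signal over background could not be read from these values.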
